A study of Mus musculus with 6 samples.

Results

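Genes of the cell division cycle were followed in CD90.2-sorted retinal cells of mice that carried AAV2-GFP or AAV2-Ezh2-Y726D. The set was a list of 41 genes, which were matched by symbol to 41 of the 32371 gene identifiers of the count table. By role, 20 of them act in the entry into S phase or in DNA replication, 18 act in mitosis and 3 encode inhibitors of cyclin-dependent kinases. The filter on low counts was passed by 40 genes, and Cdkn2a, with at most 4 counts in a library, was not tested.

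A dividing cell copies its DNA in S phase and separates the copies in mitosis. Cyclins with their kinases and the E2F factors switch on the replication genes, among them the MCM helicase and the enzymes that make nucleotides. The mitotic genes peak later, under the control of FOXM1 and of the MuvB complex with B-MYB, and are kept silent in resting cells by the related DREAM complex, which binds E2F and CHR promoter elements. Neurons of the adult retina do not divide, and microglia and other immune cells are known to be able to divide in injured tissue.

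The mice were adult C57BL/6J animals of both sexes. Each received AAV2-GFP (control) or AAV2-Ezh2-Y726D into the vitreous, underwent an optic nerve crush (ONC) 2 weeks later and was used 3 days after the ONC, so that vector injection and injury were common to the 3 GFP and the 3 Ezh2-Y726D libraries. Ezh2-Y726D is a catalytically dead form of Ezh2, the methyltransferase of PRC2. Live cells were selected by CD90.2 (encoded by Thy1), which T cells also carry, and whether a library pooled several mice is not stated in the sources used here. P values therefore measure the spread between libraries, whose origin from separate animals is not given.

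Total counts were 9333244 to 22370285 in the GFP libraries and 18215734 to 23782520 in the Ezh2-Y726D libraries. A single rRNA gene, CT010467.1, took 6.59% to 52.2% of the counts in the GFP libraries and 2.55% to 16.1% in the others, so that GFP replicates 2 and 3 were the shallowest. In these units, 3 counts stood for 0.102 to 0.497 CPM (counts scaled to a fixed library size, here after TMM). Ezh2 was 22.7, 23.8 and 26.3 CPM in the GFP libraries and 65.1, 65.5 and 65.1 CPM in the Ezh2-Y726D libraries, higher in each Ezh2-Y726D library as labelled. The libraries are labelled as retinal ganglion cells (RGCs), and the RGC gene Slc17a6 was present at 76.1 to 85.9 CPM. The Müller glia gene Glul was, however, at 2736 to 3023 CPM, and genes of immune cells were present too, so that the levels below are those of a mixed sort.

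The stretches upstream of the start site show what the mitotic and replication genes share in sequence. Promoter windows from RefSeq (build GRCm38.p6) were matched for 33 of the 41 genes, and the 250 bases before the start were searched on both strands for CCAAT (the CCAAT box, bound by NF-Y), TTTGAA (the core of the CHR) and the E2F words TTTCCCGC, TTTCGCGC, TTTGCCGC and TTTGGCGC. Of 27025 genes with a window, 34.5% held a CCAAT box, 16.3% a CHR and 1.91% an E2F word. Among the mitotic genes the CCAAT box was found in 13 of 14 (92.9%) and the CHR in 6 of 14 (42.9%), while 1 of 14 held an E2F word. In the S phase genes 11 of 16 (68.8%) held a CCAAT box, 1 of 16 a CHR and 5 of 16 (31.2%) an E2F word. Of the 3 inhibitor genes none held a CCAAT box, Cdkn2b held a CHR and Cdkn2a an E2F word. The gene names without a matched window are Ccnd1, Ccne2, Gins2, Mcm4, Ccna2, Foxm1, Aurkb and Kif20a. For 22 of the 33 genes with a window, the 40 bases after the start were found in a GENCODE transcript on the same strand. The starts of the rest were not matched in this way.

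The following stretches of 120 bases end before the transcription start and are written 5′ to 3′ on the strand of the gene, with CCAAT, CHR and E2F words in capitals on either strand. The mitotic genes Top2a (chr11:99024190-99024309, minus strand), Cdk1 (chr10:69352939-69353058, minus strand), Kif11 (chr19:37376262-37376381, plus strand) and Cdc20 (chr4:118437353-118437472, minus strand) are shown because they hold both a CCAAT box and a CHR and were called lower as DEGs. Bub1b (chr2:118598091-118598210, plus strand) is shown as a mitotic gene that was not called. The helicase genes Mcm3 (chr1:20820313-20820432, minus strand) and Mcm6 (chr1:128359706-128359825, minus strand) show a replication promoter without and with E2F words.
Top2a: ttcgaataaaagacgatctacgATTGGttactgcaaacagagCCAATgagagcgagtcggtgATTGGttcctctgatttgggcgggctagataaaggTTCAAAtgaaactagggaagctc
Cdk1: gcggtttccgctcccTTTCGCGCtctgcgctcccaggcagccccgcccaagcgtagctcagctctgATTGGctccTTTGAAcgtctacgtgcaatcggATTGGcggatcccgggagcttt
Kif11: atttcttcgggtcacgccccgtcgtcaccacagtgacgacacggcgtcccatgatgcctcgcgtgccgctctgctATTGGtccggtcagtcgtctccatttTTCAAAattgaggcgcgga
Cdc20: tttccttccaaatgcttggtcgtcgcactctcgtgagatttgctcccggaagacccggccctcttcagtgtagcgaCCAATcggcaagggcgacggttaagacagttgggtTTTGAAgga
Bub1b: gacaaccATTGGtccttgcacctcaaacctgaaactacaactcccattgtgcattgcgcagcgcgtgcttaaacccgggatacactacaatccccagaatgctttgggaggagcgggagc
Mcm3: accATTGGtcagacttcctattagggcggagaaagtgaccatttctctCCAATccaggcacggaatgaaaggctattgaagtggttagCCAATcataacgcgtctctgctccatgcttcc
Mcm6: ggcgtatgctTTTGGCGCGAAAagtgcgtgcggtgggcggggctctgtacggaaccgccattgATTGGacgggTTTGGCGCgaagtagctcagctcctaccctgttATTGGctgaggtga

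With Ezh2-Y726D, cell cycle genes were lower and none was higher, and the mitotic genes had the larger median change. At an adjusted P under 0.05 (quasi-likelihood test of edgeR, Benjamini-Hochberg adjustment over the 18138 genes tested), 32 of the 40 genes were lower, where 13.6% of all genes tested were called lower and 13.9% higher. No gene of the set was called higher, and none was higher at an unadjusted P under 0.05 or with DESeq2. As differentially expressed genes (DEGs), which in addition changed by more than 1.5-fold, 23 of the 40 were lower and 0 higher, against 5.5% and 2.52% of all genes tested. In 31 of the 40 genes each Ezh2-Y726D library was below each GFP library, which was so for 18.9% of all genes tested. These shares are descriptions, as the genes were chosen with earlier results of these data known. Fewer dividing cells and less RNA of these genes per cell cannot be told apart in bulk RNA.

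The direction depended on the scaling for some genes. When libraries were scaled by their totals and not by TMM, the median over all genes moved to 0.49 on the log2 scale, no gene of the set was called, and 8 of the 32 (Cdk2, Mcm2, Mcm4, Mcm7, Pcna, Rrm1, Tyms and Cenpe) had log2 fold changes above 0. Relative to that median all 32 remained below, as they did with library totals from which CT010467.1 had been left out.

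**Figure D1:**
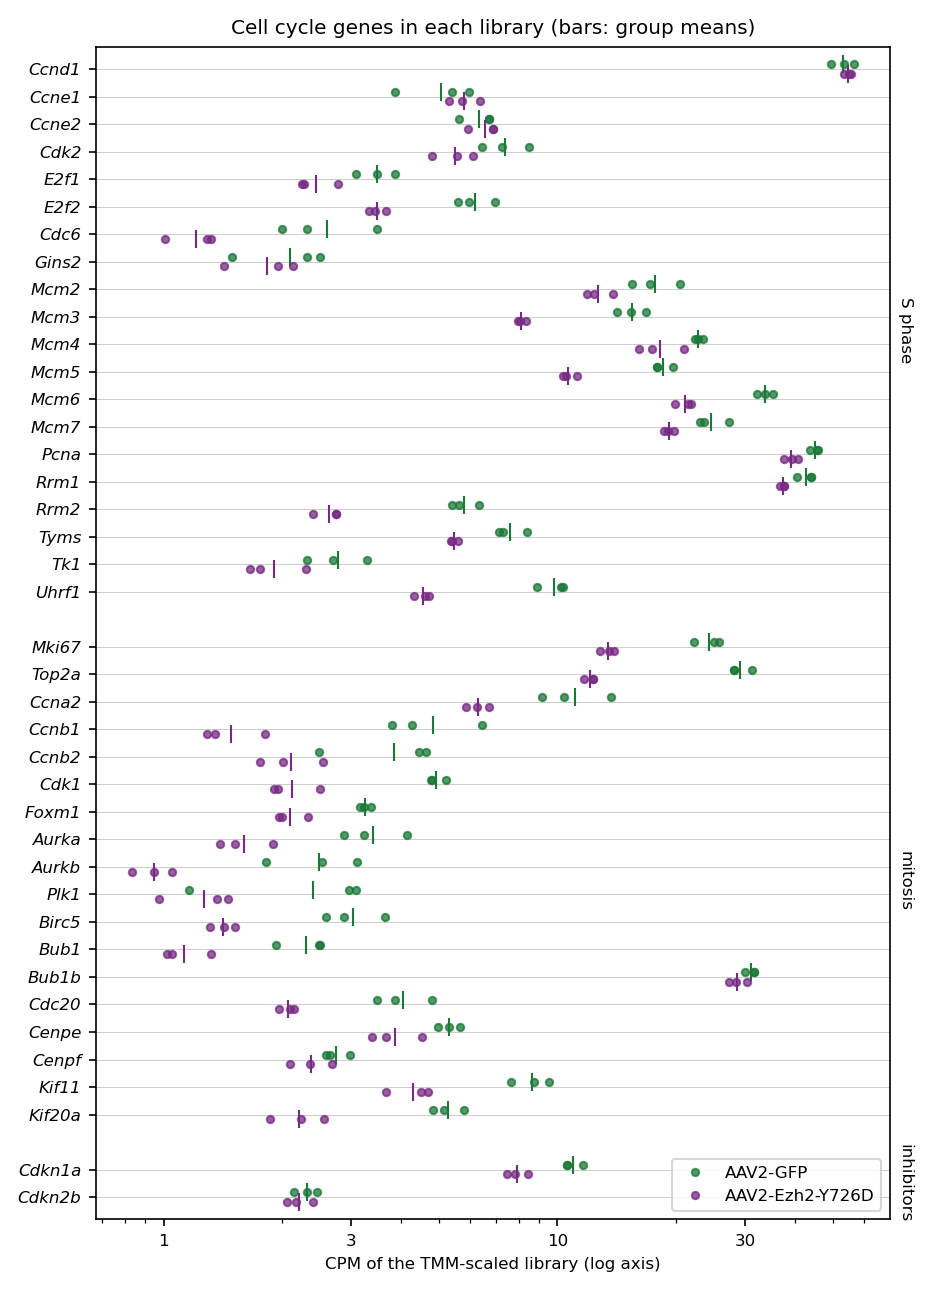
CPM of the TMM-scaled library (log axis) of 40 cell cycle genes in the 3 AAV2-GFP and 3 AAV2-Ezh2-Y726D libraries, each point 1 library and each bar a group mean, with Cdkn2a left out because it was at 0 in 2 libraries. The mitotic genes lie mostly under 10 CPM with the groups apart, while Ccnd1, Pcna, Rrm1 and Bub1b lie near or above 30 CPM with the groups close together.

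Among the 20 S phase genes, 15 were lower and 5 were not called, and the log2 fold changes had a median of -0.45 (range -1.17 to 0.16) beside 0.00 for all genes tested. As DEGs, 8 of the 20 were lower. The summed level of the 20 genes was 333.7, 329.2 and 335.4 CPM in the GFP libraries and 259.1, 263.7 and 264.3 CPM in the Ezh2-Y726D libraries. The sum was thus 78.8% of the GFP mean with TMM, and the groups were apart. With library totals the sums overlapped (217.0 to 425.8 CPM against 295.8 to 339.2 CPM, or 111.8% of the GFP mean) and the median was 0.03. With totals that leave out CT010467.1 the sum was 77.9% of the GFP mean, with the groups apart.

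The G1 cyclins and their factors opened the series. Cyclin D1 (Ccnd1), which carries growth signals to CDK4 and CDK6, was 53.4, 49.5 and 56.5 CPM with GFP and 55.1, 53.3 and 55.6 CPM with Ezh2-Y726D. It was the most abundant gene of the set in CPM and did not differ beyond the spread (log2 fold change 0.04, 95% CI -0.07 to 0.16), with 23.4% of its exonic bases shared with LTO1 on the other strand. The cyclin E genes Ccne1 and Ccne2, whose products activate CDK2 at the start of S phase, had log2 fold changes of 0.16 (95% CI -0.13 to 0.45) and 0.01 (95% CI -0.25 to 0.26) on levels of 3.86 to 6.87 CPM, with overlapping groups. Of the exonic bases of Ccne2, 17.4% are shared with Ints8 on the other strand. The kinase gene Cdk2 was 7.25, 6.44 and 8.45 CPM with GFP against 5.55, 4.80 and 6.09 CPM (log2 fold change -0.40 ± 0.13 SE, edgeR's adjusted P = 0.0227). That call of Cdk2 was lost without GFP replicate 1 (edgeR's adjusted P = 0.116), GFP replicate 3 (0.0676) or Ezh2-Y726D replicate 2 (0.101), and scaling by library totals put its log2 fold change at 0.07.

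Of the activator E2F genes, E2f1 and E2f2 belong to the set, and E2f2 alone of these passed the test. E2f2 was 5.60, 6.96 and 5.96 CPM with GFP and 3.68, 3.33 and 3.45 CPM with Ezh2-Y726D (log2 fold change -0.77 ± 0.15 SE, edgeR's adjusted P = 1.25e-04). E2f1 was 3.08, 3.86 and 3.48 CPM against 2.78, 2.25 and 2.27 CPM, and its log2 fold change of -0.45 ± 0.19 (SE) missed the threshold (edgeR's adjusted P = 0.0752, and 0.0483 without Ezh2-Y726D replicate 1). The groups did not overlap in either gene. Whether the changes of the E2F genes differ from each other was not tested.

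Cdc6, which loads the MCM helicase onto origins, was 2.00, 3.48 and 2.32 CPM with GFP and 1.01, 1.32 and 1.29 CPM with Ezh2-Y726D. It stood at 50.3% of its GFP level (log2 fold change -0.99 ± 0.25 SE, edgeR's adjusted P = 0.00315). Gins2, a subunit of the GINS complex that completes the helicase, was 1.49 to 2.49 CPM in the GFP and 1.42 to 2.13 CPM in the Ezh2-Y726D libraries and was not called. Its counts are uncertain, since 67.3% of its exonic bases overlap Gse1 on the other strand and the sources used here do not say whether counting used the strand.

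The 6 genes of the MCM2-7 helicase were all called lower, by log2 fold changes from -0.97 to -0.31, although with library totals Mcm2, Mcm4 and Mcm7 were slightly above 0 (0.02, 0.18 and 0.15) and only relative to the median of all genes below it. Mcm3 (chr1:20802968-20820312, minus strand) changed most, with 16.8, 14.2 and 15.4 CPM in the GFP libraries and 7.92, 8.03 and 8.33 CPM in the Ezh2-Y726D libraries (log2 fold change -0.97 ± 0.095 SE, edgeR's adjusted P = 3.79e-09). Mcm5 was 17.9, 19.7 and 17.9 CPM against 10.5, 11.2 and 10.3 CPM, a log2 fold change of -0.79 ± 0.085 (SE). Mcm6, at 33.7, 35.2 and 32.1 CPM against 19.9, 21.8 and 21.4 CPM, changed by -0.68 ± 0.065 (SE) on the log2 scale. The groups of these 3 genes were far apart. Mcm2, Mcm4 and Mcm7 had smaller log2 fold changes of -0.47, -0.31 and -0.34, and their groups were also apart, Mcm4 at 22.3, 22.7 and 23.4 CPM against 16.1, 17.4 and 21.0 CPM. The call of Mcm4 was lost without Ezh2-Y726D replicate 1 (edgeR's adjusted P = 0.0527). The confidence intervals of Mcm3 (-1.17 to -0.78) and Mcm7 (-0.49 to -0.20) do not meet, so subunits of the same complex changed to unequal extents in these libraries.

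The nucleotide enzymes divided in the same way. Rrm2, the regulated subunit of ribonucleotide reductase, was 6.31, 5.41 and 5.63 CPM with GFP and 2.74, 2.40 and 2.74 CPM with Ezh2-Y726D, the lowest log2 fold change of the S phase genes (log2 fold change -1.17 ± 0.15 SE, edgeR's adjusted P = 5.88e-07). Its partner Rrm1 was 43.9, 40.6 and 44.1 CPM against 37.6, 36.8 and 37.5 CPM, a log2 fold change of -0.21 ± 0.057 (SE) that became 0.29 with library totals. Within each library the ratio of Rrm2 to Rrm1, which no scaling changes, was 0.144, 0.133 and 0.128 with GFP and 0.0728, 0.0652 and 0.0732 with Ezh2-Y726D. The call of Rrm1 was lost without GFP replicate 1 (edgeR's adjusted P = 0.0904). Thymidylate synthase (Tyms) and thymidine kinase (Tk1) changed by -0.44 ± 0.12 and -0.67 ± 0.21 (SE) on the log2 scale, Tyms to 0.04 with library totals. Tk1 was not called without GFP replicate 1 (edgeR's adjusted P = 0.358) or Ezh2-Y726D replicate 3 (0.0794).

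Pcna, the sliding clamp of the DNA polymerases, was 45.5, 45.9 and 43.7 CPM with GFP and 39.4, 40.7 and 37.6 CPM with Ezh2-Y726D. The groups did not overlap, but the log2 fold change was only -0.21 ± 0.057 (SE, edgeR's adjusted P = 0.00693), became 0.30 with library totals and was not called without GFP replicate 1 or Ezh2-Y726D replicate 3 (edgeR's adjusted P = 0.0503 each). Uhrf1, which guides DNA methylation to newly copied DNA, was 10.2, 8.89 and 10.3 CPM against 4.73, 4.60 and 4.33 CPM (log2 fold change -1.13 ± 0.12 SE, edgeR's adjusted P = 1.54e-08). Replication factors thus ranged from Pcna and Rrm1, each at 86.7% of the GFP level, to Uhrf1 at 45.9% and Rrm2 at 44.3%.

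The 18 mitotic genes were lower in 16 cases, 15 of them as DEGs, and 2 were not called. All 18 log2 fold changes were below 0, with a median of -1.04 (range -1.69 to -0.12), although with library totals those of Bub1b, Cenpf and Cenpe were above 0. Their summed level was 149.8, 159.5 and 146.8 CPM in the GFP libraries and 86.7, 87.9 and 93.6 CPM in the Ezh2-Y726D libraries, or 58.8% of the GFP mean. With library totals these sums overlapped too (94.9 to 191.2 CPM against 98.7 to 116.3 CPM), and with totals that leave out CT010467.1 they were apart at 58.1%. The ratio of the mitotic to the S phase sum, taken within each library, was 0.449, 0.484 and 0.438 with GFP and 0.335, 0.333 and 0.354 with Ezh2-Y726D. The mitotic sum was thus smaller beside the S phase sum in each Ezh2-Y726D library, a difference that scaling between libraries does not touch. Its size depends on abundant S phase genes that changed little. With GFP, Ccnd1, Pcna and Rrm1 held 53.1, 45.0 and 42.9 of the mean S phase sum of 332.8 CPM. A fold below 0.5 (log2 fold change under -1) was seen in 10 of the 18 mitotic and 2 of the 20 S phase genes.

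**Figure D2:**
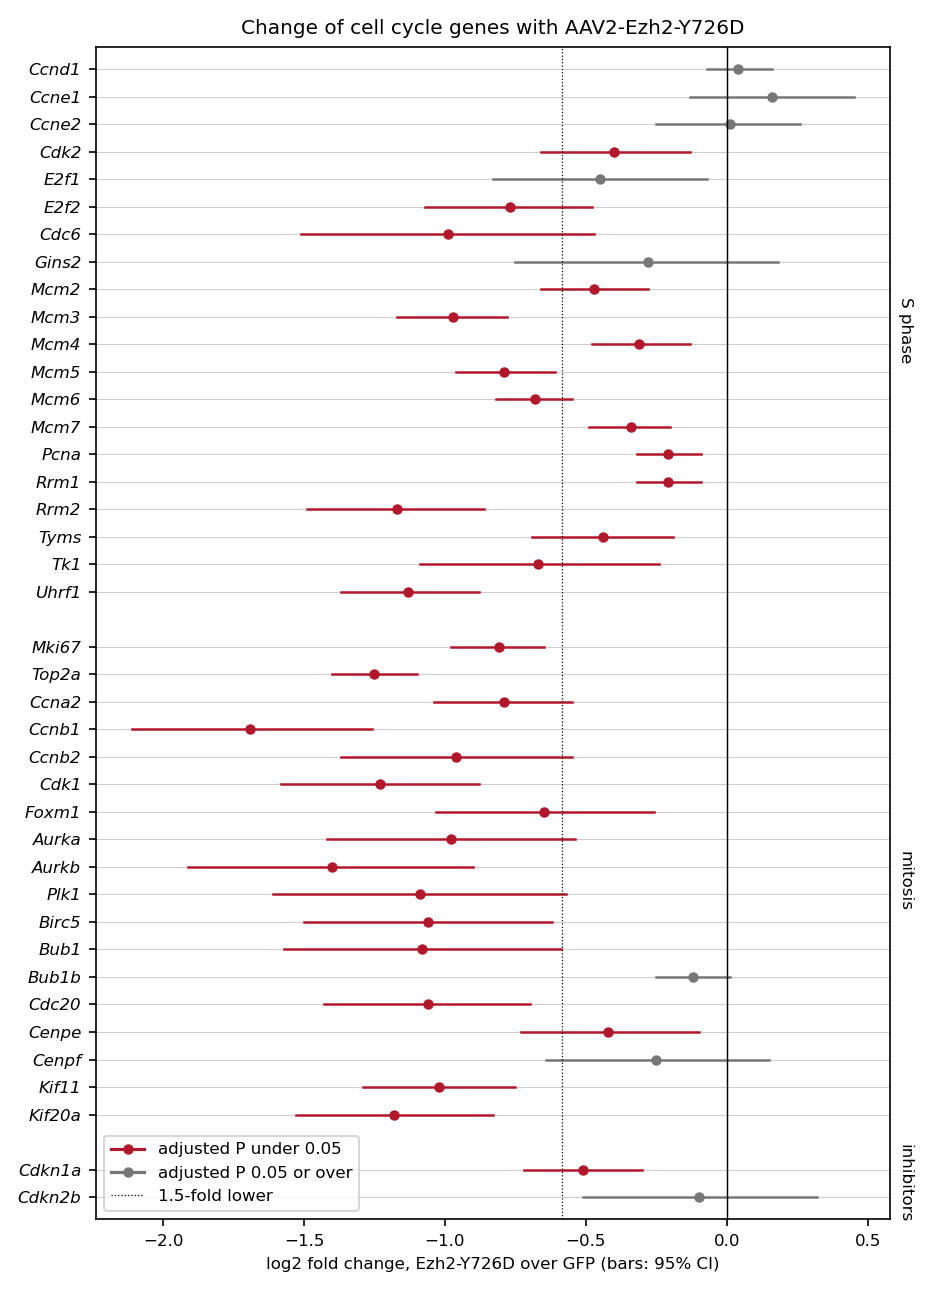
Log2 fold changes of the 40 genes tested, Ezh2-Y726D over GFP, with 95% CI from edgeR's fit of 3 against 3 libraries and the 1.5-fold line dotted. With TMM scaling the mitotic genes centre on -1.04 and the S phase genes on -0.45, while 8 of the called genes lie above 0 with library totals.

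The kinase and cyclins that drive entry into mitosis were all called lower. Cyclin B1 (Ccnb1, chr13:100778650-100786570, minus strand) was 4.27, 6.44 and 3.81 CPM with GFP and 1.35, 1.81 and 1.29 CPM with Ezh2-Y726D. At 31.1% of its GFP level it had the largest fall of the 41 genes (log2 fold change -1.69 ± 0.21 SE, edgeR's adjusted P = 2.51e-07). Its kinase Cdk1 was 5.22, 4.77 and 4.80 CPM against 1.95, 1.91 and 2.50 CPM (log2 fold change -1.23 ± 0.17 SE). In both genes the groups were well separated. Cyclin A2 (Ccna2) was 10.4, 13.7 and 9.11 CPM against 6.72, 5.87 and 6.26 CPM, a log2 fold change of -0.79 ± 0.12 (SE), with 12.5% of its exonic bases shared with Exosc9 on the other strand. Ccnb2 was 4.45, 4.64 and 2.48 CPM against 1.76, 2.01 and 2.54 CPM, so that its groups overlapped by GFP replicate 3 although it was called (log2 fold change -0.96 ± 0.20 SE, edgeR's adjusted P = 4.03e-04).

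Foxm1, a transcription factor of mitotic genes, was 3.36, 3.22 and 3.15 CPM with GFP and 2.33, 1.96 and 2.00 CPM with Ezh2-Y726D (log2 fold change -0.65 ± 0.19 SE, edgeR's adjusted P = 0.00923). Without GFP replicate 1 it was not called (edgeR's adjusted P = 0.116).

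Genes used as marks of proliferation were among the most precisely measured of the mitotic set. Top2a, the topoisomerase that untangles sister DNA (chr11:98992943-99024189, minus strand), was 28.1, 31.2 and 28.0 CPM with GFP and 11.7, 12.3 and 12.3 CPM with Ezh2-Y726D. It had the smallest adjusted P of the set (log2 fold change -1.25 ± 0.075 SE, edgeR's adjusted P = 3.18e-13). Mki67, which encodes the Ki-67 antigen, was 22.2 to 25.7 CPM against 12.8, 13.9 and 13.5 CPM (log2 fold change -0.81 ± 0.079 SE, edgeR's adjusted P = 3.73e-09). Neither gene had groups that came near each other.

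The mitotic kinases and the passenger protein survivin were lower as well. Aurkb was 2.52, 3.09 and 1.82 CPM with GFP and 1.05, 0.832 and 0.948 CPM with Ezh2-Y726D, a log2 fold change of -1.40 ± 0.25 (SE). Aurka, the kinase of the spindle poles, was 2.87, 3.22 and 4.14 CPM against 1.39, 1.52 and 1.90 CPM (-0.98 ± 0.21 SE on the log2 scale). Birc5, which encodes survivin, was 2.87, 2.58 and 3.64 CPM against 1.31, 1.52 and 1.42 CPM (-1.06 ± 0.21 SE). The groups of these 3 genes did not overlap. Plk1 was 3.08, 2.96 and 1.16 CPM against 0.976, 1.37 and 1.46 CPM, so that GFP replicate 3, with 7 counts, lay among the Ezh2-Y726D libraries. Plk1 changed by -1.09 ± 0.25 on the log2 scale (SE, edgeR's adjusted P = 0.00140), and without GFP replicate 1 it was not called (edgeR's adjusted P = 0.144).

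The spindle checkpoint genes did not move together. Bub1, a checkpoint kinase, was 2.49, 1.93 and 2.48 CPM with GFP and 1.05, 1.32 and 1.02 CPM with Ezh2-Y726D (log2 fold change -1.08 ± 0.24 SE, edgeR's adjusted P = 8.08e-04). Cdc20, the activator of the anaphase-promoting complex that the checkpoint holds back, was 4.80, 3.86 and 3.48 CPM against 2.14, 1.96 and 2.10 CPM (log2 fold change -1.06 ± 0.18 SE). Bub1b, which encodes the checkpoint protein BubR1, averaged 31.1 CPM (SD 0.938, n = 3) with GFP and was 28.4, 27.2 and 30.2 CPM with Ezh2-Y726D. Its groups overlapped, and the interval of its log2 fold change, -0.25 to 0.01, excludes a change of the size seen in Bub1 (95% CI -1.57 to -0.59). Bub1b was the most abundant mitotic gene, at a mean of 7.27 CPM per kilobase of exon in the GFP libraries, where Top2a was at 3.23, Mki67 at 2.41 and Bub1 at 0.529. The ratio of Top2a to Bub1b within each library was 0.888, 1.04 and 0.885 with GFP and 0.412, 0.453 and 0.408 with Ezh2-Y726D.

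Of the motor and kinetochore genes, Kif11 (the motor that pushes spindle poles apart) was 8.72, 9.53 and 7.62 CPM with GFP and 3.68, 4.50 and 4.70 CPM with Ezh2-Y726D (log2 fold change -1.02 ± 0.13 SE, edgeR's adjusted P = 5.12e-07). Kif20a, a motor of the dividing cell's midzone, was 4.83, 5.15 and 5.80 CPM against 2.55, 1.86 and 2.23 CPM (-1.18 ± 0.17 SE on the log2 scale), with 29.3% of its exonic bases shared with Cdc23 on the other strand. Both had groups far apart. Cenpe and Cenpf encode kinetochore proteins. Cenpe was 4.97, 5.67 and 5.30 CPM against 3.38, 3.67 and 4.53 CPM and was called at edgeR's adjusted P = 0.0436 (log2 fold change -0.42 ± 0.15 SE, 0.05 with library totals), a call that only the fit without Ezh2-Y726D replicate 3 kept among the 6 that left out 1 library (edgeR's adjusted P = 0.0706 to 0.168 without each of the others). Cenpf, at 2.10 to 2.98 CPM over all libraries, had a log2 fold change of -0.25 (95% CI -0.64 to 0.15) and was not called.

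The 6 mitotic genes with a CHR (Mki67, Top2a, Ccnb2, Cdk1, Cdc20 and Kif11) had log2 fold changes from -1.25 to -0.81 with a median of -1.04, and the 8 with a window but no CHR ran from -1.69 to -0.12 with a median of -1.02. The ranges overlap, and the 3 genes with the smallest changes, Bub1b, Cenpf and Cenpe, were all in the second group, as was Ccnb1. For the S phase genes, the medians were -0.68 (range -0.99 to -0.34) over 5 genes with an E2F word and -0.47 (range -1.17 to 0.16) over 11 without. These ranges overlap as well, and Rrm2 and Uhrf1, with the lowest log2 fold changes of the S phase genes, are among those without. These are descriptions of words in a window, without a test.

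The change was also read by abundance. Of the 40 genes, 5 had a mean of at least 30 CPM in the GFP libraries (Ccnd1, Pcna, Rrm1, Mcm6 and Bub1b), and 1 of these, Mcm6, was a DEG, while Top2a and Mki67, the next mitotic genes after Bub1b, were DEGs as well. Levels per kilobase of exon put Pcna first at 18.8 CPM per kilobase in the GFP libraries and Ccnd1 next at 11.3, followed by Bub1b at 7.27 and Mcm6 at 7.22.

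Of the inhibitor genes, only Cdkn1a was called. Cdkn1a, the p53 target that encodes p21, was 11.6, 10.6 and 10.6 CPM with GFP and 7.43, 8.42 and 7.78 CPM with Ezh2-Y726D (log2 fold change -0.51 ± 0.10 SE, edgeR's adjusted P = 3.26e-04). An inhibitor of the cycle was thus lower along with the genes of the cycle, short of the 1.5-fold threshold. With library totals Cdkn1a was not called (edgeR's adjusted P = 0.993), and only its direction relative to the median of all genes held (-0.50). The call was also lost with thinning (edgeR's adjusted P = 0.146). Cdkn2b, which encodes p15, was 2.45, 2.32 and 2.15 CPM against 2.40, 2.06 and 2.17 CPM and was not called (log2 fold change -0.10, 95% CI -0.51 to 0.32). Cdkn2a, which encodes p16 and p19ARF, had 4, 0 and 0 counts against 2, 1 and 1 counts, too few to compare at this depth.

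Further genes of the same processes were read from lists that hold no member of the set. Of 38 other S phase genes tested, 14 were lower and 1 was higher, where 13.6% of all genes tested were called lower and 13.9% higher. The median log2 fold change was -0.27. Among the lower genes were Mcm10 (-0.96 ± 0.21 SE on the log2 scale) and Clspn, which encodes the checkpoint adaptor claspin (-0.93 ± 0.19). Cdc7, the kinase that fires origins, rose from 20.1, 17.4 and 18.7 CPM to 22.7, 24.7 and 24.4 CPM (log2 fold change 0.32 ± 0.074 SE, edgeR's adjusted P = 0.00138), while Dbf4, its activating partner, fell by 0.61 on the log2 scale. Without GFP replicate 1 Mcm10 was not called (edgeR's adjusted P = 0.0894), and the count of lower genes was 9 without Ezh2-Y726D replicate 3, 9 with DESeq2 and 0 with library totals.

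Of 54 other mitosis genes, all tested, 38 were lower and none higher (0 at an unadjusted P under 0.05 or with DESeq2), with a median log2 fold change of -0.74 and 33 lower DEGs. Over all genes tested, 13.6% were called lower and 13.9% higher, and 5.5% were lower DEGs. Dlgap5 (-1.30 ± 0.22 SE on the log2 scale), Nuf2 (-1.30 ± 0.23) and Ttk (-1.28 ± 0.31), which act at spindle and kinetochore, fell most. Spc25, a partner of Nuf2 in the NDC80 complex, was the most abundant gene of this list, at 178.0 CPM in the GFP and 176.9 CPM in the Ezh2-Y726D libraries on average (log2 fold change 0.00 ± 0.044 SE). Hjurp (61.6 and 56.4 CPM) and Incenp (log2 fold change -0.04 ± 0.084 SE) were likewise not called. These 3 genes and Dbf4 were chosen after their values were seen. Without GFP replicate 1 the count of lower genes in this list was 23, and with DESeq2 it was 30.

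Other regulators of the cycle were read in the same way. Of 34 such genes, 13 were lower, where 13.6% of all genes tested were, and the median log2 fold change was -0.12. None was called higher by edgeR's quasi-likelihood test (2 at an unadjusted P under 0.05, and 0 with DESeq2), although 2 were with the replicate number as a block, without a filter or with at least 10 counts in every library, and up to 1 when a library was left out. The largest falls were in E2f8 (-1.17 ± 0.29 SE on the log2 scale), Mybl2, which encodes B-MYB (-1.09 ± 0.25), and E2f7 (-0.89 ± 0.33), all genes that are themselves switched on in cycling cells. E2f8 was not called without GFP replicate 1 (edgeR's adjusted P = 0.133), E2f7 was called in 2 of the 6 fits that left out 1 library, and the count of lower genes without GFP replicate 1 was 7. Among the other inhibitor genes, which were also chosen with their values in view, Cdkn1c fell by 0.68, Cdkn2c by 0.42 and Cdkn1b by 0.17 on the log2 scale, while Cdkn2d was at 0.01 and not called. Cyclin D2 (Ccnd2) fell from a mean of 34.8 to 20.4 CPM (log2 fold change -0.74 ± 0.068 SE, edgeR's adjusted P = 1.12e-09), while Ccnd1 above and Ccnd3 (-0.08 ± 0.053 SE) were not called. Ccnd2 and Ccnd3 were picked with their values known.

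Targets of p53 were read beside Cdkn1a. Of 21 such genes, 4 were lower and 2 higher, with a median log2 fold change of -0.13 and no DEG, and these counts are close to the 13.6% and 13.9% called over all genes. With DESeq2 the counts were 2 lower and 1 higher, and with library totals 0 and 0. Ccng1 was lower at 79.5 to 88.5 CPM against 100.6 to 102.5 CPM (-0.28 ± 0.047 SE on the log2 scale, 0.23 with library totals), and Plk2 was higher at 64.4 to 71.0 CPM against 44.1 to 51.2 CPM (0.44 ± 0.058). The calls of Pmaip1 (-0.45 ± 0.15, 0.07 with library totals), Fas (-0.38 ± 0.13, 0.09 with library totals) and Ei24 (0.13 ± 0.048) were each lost in at least 3 of the 6 fits that left out 1 library. The log2 fold change of Cdkn1a (-0.51) lies beyond the lowest of this list (-0.45).

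Histone genes of the Hist1 to Hist4 clusters, most of which are transcribed in S phase to package new DNA, gave 57 tested genes of 64. Of these, 34 were lower and none higher (0 at an unadjusted P under 0.05 and with DESeq2), with a median log2 fold change of -0.36 and 20 lower DEGs. The shares over all genes tested were 13.6% lower, 13.9% higher and 5.5% lower DEGs. Hist1h3g fell from 3.08, 2.83 and 3.48 CPM to 1.09, 0.881 and 0.948 CPM (log2 fold change -1.66 ± 0.22 SE, edgeR's adjusted P = 1.19e-06). Hist1h2af and Hist1h3c followed with -1.51 ± 0.20 and -1.43 ± 0.12 (SE). These genes have near-identical copies, so the split of reads between copies is uncertain. Most of their transcripts lack a poly(A) tail. Without GFP replicate 1 the counts were 20 lower and 1 higher.

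**Figure D3:**
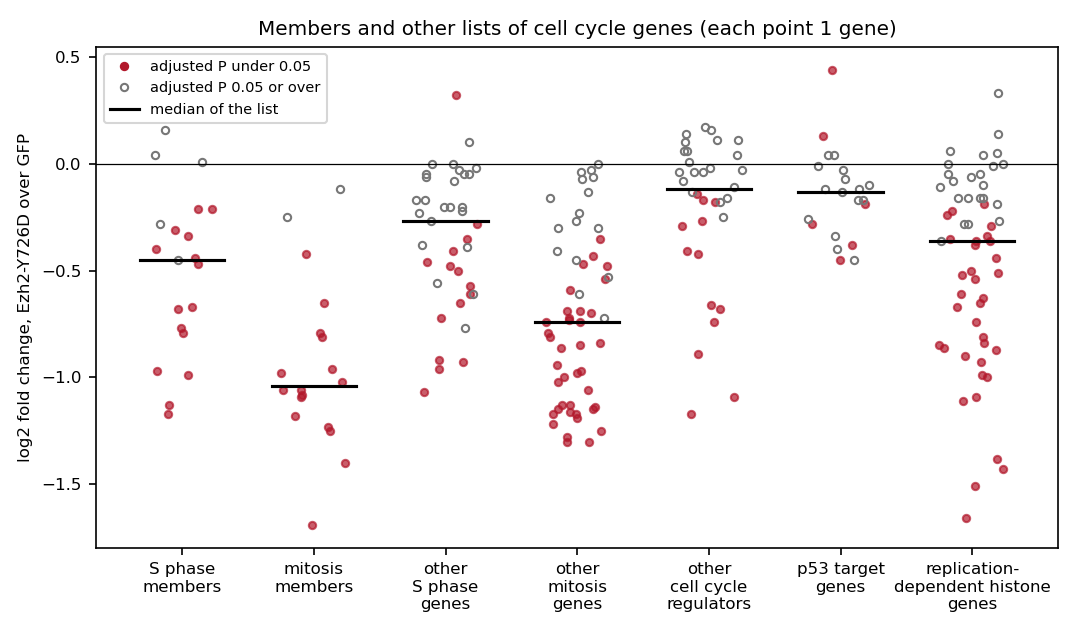
Log2 fold changes of the genes tested, Ezh2-Y726D over GFP with TMM scaling, in the S phase and mitosis members and in 5 other lists of cell cycle genes, each point 1 gene and each line the list's median. The medians are -0.45 and -1.04 for the members, -0.27 and -0.74 for the other S phase and mitosis genes, -0.36 for histone genes, and -0.12 and -0.13 for regulators and p53 targets, and with library totals each would lie higher by about the 0.49 by which the median of all genes moves.

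Lists of immune cell genes also had lower mean sums with Ezh2-Y726D, as had those of cone and bipolar cells (given below). All 15 T cell genes tested were lower (median log2 fold change -0.79), and their summed level was 225.3 to 228.2 CPM in the GFP and 125.9 to 137.8 CPM in the Ezh2-Y726D libraries. Their sum stood at 58.8% of the GFP mean. Of the genes of infiltrating macrophages and monocytes, all 11 tested were lower, with sums of 712.9 to 780.2 and 236.9 to 281.7 CPM, and Cd163 was at 0 in 3 of the 6 libraries. Among the 16 microglia genes 10 were lower and 2 higher (P2ry12 and Sall1), with sums of 982.8 to 1088 and 630.1 to 740.7 CPM. Of the 9 tested genes of B and plasma cells 5 were lower (3 with DESeq2), with sums of 248.4 to 259.9 and 218.4 to 245.1 CPM. The neutrophil genes S100a8, S100a9, Cxcr2 and Retnlg were at or under 3 counts in each library, and of the 2 neutrophil genes tested 1 was lower.

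Markers of other cells were read as well, to be set beside the 13.6% of all genes called lower and the 13.9% called higher. Of 10 endothelial genes 3 were lower, and their summed level overlapped between the groups (972.8 to 1035 CPM against 911.0 to 976.3 CPM). Of 8 genes of pericytes and smooth muscle 6 were lower (3 with DESeq2), with sums of 208.0 to 224.6 and 164.8 to 179.1 CPM. Müller glia genes were lower in 4 and higher in 2 of 10 cases. The 14 RGC genes had 2 lower and 3 higher, and their sums overlapped (638.4 to 667.4 CPM against 623.4 to 668.9 CPM). Of the other retinal cells, 7 of 8 cone, 9 of 10 bipolar and 3 of 5 astrocyte genes were lower, while all 10 amacrine and 3 of 8 rod genes were higher. The cone sum stood at 65.5% and the bipolar sum at 81.1% of the GFP mean, beside 68.0% for the microglia genes and 149.1% for the amacrine genes. A fall of this size was thus not particular to genes of immune cells.

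Within each library, the sum of the mitotic genes was 0.663, 0.699 and 0.651 of the T cell sum with GFP and 0.689, 0.649 and 0.679 with Ezh2-Y726D, so that this ratio overlapped between the groups. The overlap rested on the abundant, uncalled Bub1b. Without it, an alternative chosen after the data were seen, the ratio was 0.523, 0.567 and 0.511 with GFP against 0.463, 0.448 and 0.460, lower in each Ezh2-Y726D library, and the mitotic sum was 50.3% of the GFP mean. The sum of the S phase genes over the T cell sum did not overlap, at 1.48, 1.44 and 1.49 against 2.06, 1.95 and 1.92. Relative to the macrophage and monocyte genes all the mitotic genes summed were higher with Ezh2-Y726D (0.188 to 0.210 against 0.312 to 0.366). That list is dominated by Lyz2, at a mean of 505.4 of 755.0 CPM with GFP and 117.8 of 263.8 CPM with Ezh2-Y726D. Whether the difference holds without Lyz2 was not tested. Relative to the microglia genes all the mitotic genes summed were lower (0.143 to 0.152 against 0.120 to 0.138). The S phase genes were higher relative to the microglia genes (0.303 to 0.340 against 0.357 to 0.411). Ccnd1, Pcna and Rrm1 held 53.1, 45.0 and 42.9 of the mean S phase sum of 332.8 CPM with GFP. They changed little, to 103.1%, 86.7% and 86.7% of the GFP level. Whether the S phase ratios differ without these genes was not tested. The ratios given are free of the scaling between libraries and depend on which genes a list holds. The part of T cells, macrophages or microglia in the change of the cell cycle genes was not tested.

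**Figure D4:**
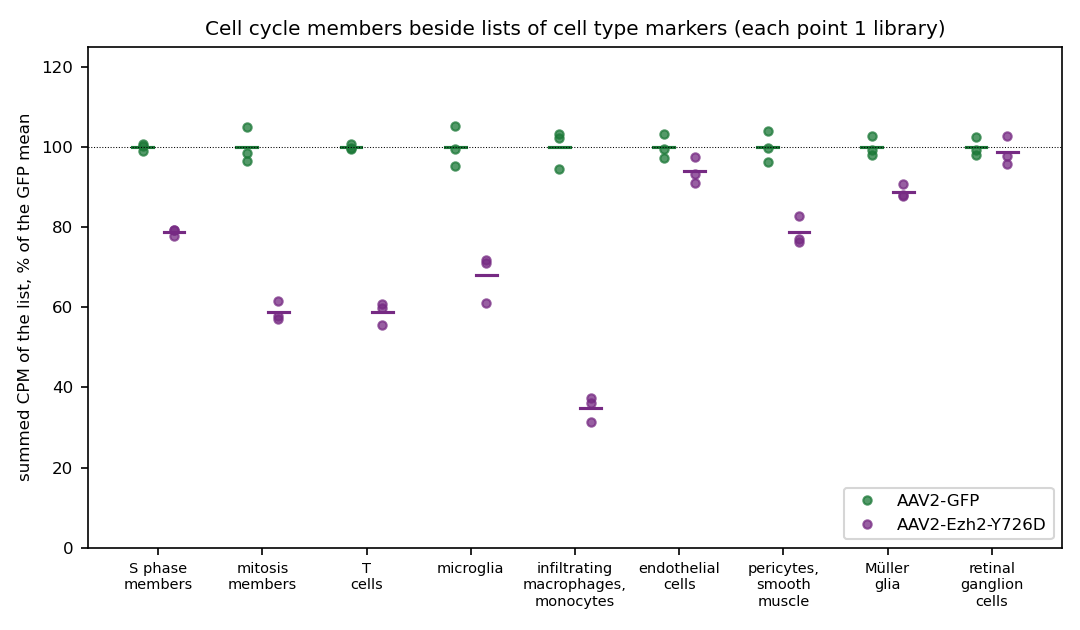
Summed CPM of the S phase and mitosis members and of 7 lists of cell type markers, in percent of the mean of the 3 GFP libraries, each point 1 library and each line a group mean. With Ezh2-Y726D the mitosis members stand at 58.8% (50.3% without Bub1b), the T cell genes at 58.8%, the S phase members at 78.8%, the macrophage and monocyte genes at 34.9% and the RGC genes at 98.8%. Lyz2 holds 505.4 of the 755.0 CPM of the macrophage and monocyte genes with GFP. Cone (65.5%), bipolar (81.1%) and amacrine genes (149.1%) are not drawn.

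The counts were repeated without the libraries of low depth. In a fit chosen after the data were seen that left out GFP replicates 2 and 3, in which the lone GFP library is assumed to vary like the others, 12 S phase and 15 mitotic genes were lower and none was higher. Leaving out GFP replicate 1, the deepest GFP library, gave 11 and 13. When every library was thinned to 4460732 counts, the depth of the shallowest without CT010467.1, 3 S phase and 2 mitotic genes were called lower, and the medians were -0.42 and -0.76. Of the 32 calls, 24 held in each of the 6 fits that left out 1 library.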

How the data were processed

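The authors deposited raw counts of reads per gene, as whole numbers without normalization, for 6 RNA-Seq libraries made with a stranded total RNA kit, and all 6 count columns were used. The submitters' processing notes name STAR 2.7.0d and GRCm38, while the counting tool, its use of strand, the annotation and any filter are not given in the sources used here. Of 32371 identifiers, 32325 were matched to a symbol, and positions are those of GENCODE vM21. CPM were computed in edgeR 4.0.16 (R 4.3.3) from TMM-scaled libraries. Groups of 3 against 3 libraries were compared by the quasi-likelihood test of edgeR after filterByExpr (10 counts, total of 15), with Benjamini-Hochberg adjustment over 18138 genes, and the SE is the size of the log2 fold change over the root of the F statistic. The common biological coefficient of variation was 0.0442. DEGs passed an adjusted P of 0.05 and a 1.5-fold change, as in the study's methods. DESeq2 1.42.0, other scalings and filters, thinning, the replicate number as a block and leaving out libraries were alternatives. The procedure was tested on simulated data. The members and lists were chosen with earlier results of these data known. Every member is described, and from the other lists up to 3 called genes per direction with the largest change and a mean of at least 1 CPM were named, besides those said to be chosen after their values were seen. Some genes that this rule or the marker lists hold are not reported here. Promoter windows are the first window listed per gene.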

Additional observations from a re-analysis of the deposited data

How the results depend on the processing

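Depth and scaling set the limits. RLE size factors, TMM without CT010467.1, at least 10 counts in every library and, apart from the uncalled Ccne2, library totals without CT010467.1 left the direction and the call of each tested member with a value as it was (38 members under the filter of 10 counts). With library totals, which carry the rRNA share of each library, 0 S phase and 0 mitotic genes were called lower, the medians were 0.03 and -0.56, and log2 fold changes turned to 0.07 for Cdk2, 0.02 for Mcm2, 0.18 for Mcm4, 0.15 for Mcm7, 0.30 for Pcna, 0.29 for Rrm1, 0.04 for Tyms, 0.05 for Cenpe, 0.07 for Pmaip1, 0.09 for Fas and 0.23 for Ccng1. Relative to the median of all genes under the same totals (0.49), the medians were -0.46 and -1.05. Over all genes 19 were then lower and 46 higher (29.2% of calls lower), against 2463 and 2525 (49.4%). The 5 other lists of cell cycle genes then had 0 calls each. Thinning, which leaves fewer reads by construction, gave 3 and 2 lower genes a mitotic median of -0.76, and 732 lower and 722 higher of all 15139 genes tested. A fold change over 1.5 in addition left 8 S phase genes. Leaving out each library in turn gave 11 to 15 lower S phase and 13 to 16 lower mitotic genes, with medians from -0.46 to -0.41 and from -1.09 to -0.92. DESeq2 called 13 and 14, and lost Cdk2, Tk1, Foxm1 and Cenpe (adjusted P = 0.0871, 0.127, 0.0644 and 0.135). Without a filter Cenpe was lost (edgeR's adjusted P = 0.0528). Same-numbered libraries had correlations of 0.137, 0.051 and 0.0391 between their deviations from the group means, each the highest for its library. This is a hint of pairing from the data only. The labels give no more than a shared number, so whether the libraries were paired is not known. With the replicate block 15 S phase and 16 mitotic genes were lower, with medians of -0.44 and -1.06, and no member's call changed.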
